A study of Homo sapiens with 16 samples.

Results

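The Notch receptors and ligands followed here were 10 genes, chosen by name from the 57736 genes of the deposited count table: the receptors NOTCH1, NOTCH2, NOTCH3 and NOTCH4, the ligands DLL1, DLL3, DLL4, JAG1 and JAG2, and the ligand-like gene DLK2. All 10 were found, and all 10 were among the 24249 genes with enough counts to test. RNA was sequenced from H9, an established human embryonic stem cell line, taken through dual SMAD inhibition, in which the BMP inhibitor LDN193189 and the TGF-β receptor inhibitor SB431542 turn the cells towards a neural fate. Cells were collected undifferentiated (D0) and at days 12, 30 and 70 (D12, D30, D70), each with ThiametG (TMG, 40 µM), which blocks the enzyme OGA that takes O-GlcNAc sugars off proteins, or with the DMSO solvent (control). There were 2 libraries for each of the 8 groups, 16 in all, of ribosomal-RNA-depleted total RNA from the whole culture, and all groups came from 1 cell line.

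Library totals ran from 10334908 to 19836878 counts. Groups follow the library titles, with which the column names of the table agree. In 8 libraries the treatment tag says otherwise, since it calls every replicate 1 control and every replicate 2 TMG, so values are given for each library below. The labelled cell states were checked with marker genes. The summed level of 8 pluripotency genes was 3472 to 3932 CPM (counts scaled to the size of the library) at D0 and 4.35 to 9.42 CPM at D70. That of 8 radial glia genes was 734 to 987 CPM at D0 and 1595 to 4781 CPM later. For 10 neuron genes it was 266.5 to 273 CPM at D0 and 166 to 1050 CPM later, lowest in D70 TMG replicate 2. Genes of collagen-producing mesenchymal cells, 10 in number, summed to 30470 CPM in D30 TMG replicate 2, 45650 CPM in D70 control replicate 2 and 59850 CPM in D70 TMG replicate 2, against at most 7948 CPM in the other 13 libraries. These 3 libraries stand apart, and the fold changes named below that move by over 1.5 times without them are given both ways.

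Notch signalling passes between touching cells. A ligand of the Delta-like (DLL) or Jagged (JAG) family on one cell pulls on a receptor on its neighbour, the receptor is cut inside the membrane by γ-secretase, and its freed tail enters the nucleus, where it joins RBPJ and switches on genes such as HES1 and HES5. In the developing cortex the pathway is known for holding radial glia in the progenitor state, while newborn neurons present Delta-like ligands to them. DLL3 is the exception among the Delta-like proteins, since it stays largely inside the cell and blocks signalling there, and DLK2 resembles the ligands but lacks the domain with which they engage receptors.

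On GRCh37, the build the authors aligned to, the receptor genes lie at chr9:139388885-139440500 (NOTCH1), chr1:120454176-120643366 (NOTCH2), chr19:15269849-15311806 (NOTCH3) and chr6:32162620-32191844 (NOTCH4), all on the minus strand. The ligand genes lie at chr6:170591294-170615653 (DLL1, minus), chr19:39989535-39999121 (DLL3, plus), chr15:41221538-41231271 (DLL4, plus), chr20:10618332-10654647 (JAG1, minus) and chr14:105607319-105635161 (JAG2, minus), and DLK2 lies at chr6:43418090-43424370 (minus). The canonical transcripts of the receptors span 6745 to 11425 bases in 30 to 34 exons, and those of the ligands and DLK2 1548 to 5940 bases in 6 to 26 exons. Counts cover all exons of a gene. The library kit does not mark strand, so reads in the 370 exonic bases that DLL1 shares with FAM120B on the other strand (9.69% of its exonic sequence) cannot be assigned to either gene for certain, and the same holds for 76 bases that DLK2 shares with ABCC10. NOTCH2 has near-identical partial copies on chromosome 1, so its counts are uncertain to the extent that reads were divided between them.

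Upstream sequence was read from RefSeq promoters (GRCh38.p14), which held 8 of the 10 genes. The 250 bases before the start site are shown for the receptor whose level moved most between stages (NOTCH2), for the receptor with the lowest level (NOTCH4), and for JAG2, 1 of the 2 genes here with an E-box. Capitals mark the E-box letters CANNTG, which bHLH factors such as NEUROG2 recognise; in JAG2 the 2 matches abut without overlap. The windows are chr1:120069663-120069912, chr6:32224068-32224317 and chr14:105168777-105169026, each on the minus strand and written 5′ to 3′.
NOTCH2: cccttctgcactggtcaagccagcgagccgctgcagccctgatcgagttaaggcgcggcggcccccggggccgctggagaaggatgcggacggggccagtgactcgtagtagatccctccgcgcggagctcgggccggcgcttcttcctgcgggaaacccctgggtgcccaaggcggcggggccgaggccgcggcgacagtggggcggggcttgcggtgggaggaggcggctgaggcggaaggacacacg
NOTCH4: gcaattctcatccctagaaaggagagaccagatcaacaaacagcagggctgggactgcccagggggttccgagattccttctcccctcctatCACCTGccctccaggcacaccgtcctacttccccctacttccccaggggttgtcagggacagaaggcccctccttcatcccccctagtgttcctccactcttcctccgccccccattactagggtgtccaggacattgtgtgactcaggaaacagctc
JAG2: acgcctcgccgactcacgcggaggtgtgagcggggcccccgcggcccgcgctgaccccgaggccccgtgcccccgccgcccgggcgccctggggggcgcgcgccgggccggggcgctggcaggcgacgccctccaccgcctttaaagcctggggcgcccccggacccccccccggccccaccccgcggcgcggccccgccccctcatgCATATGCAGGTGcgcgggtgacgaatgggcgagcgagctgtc
The NOTCH2 window held 29 CpG dinucleotides and 72.8% G and C, the JAG2 window 38 and 81.6%, and the NOTCH4 window 3 and 58.0%, beside a median of 11 CpG over the 27305 promoters searched. An E-box was found in 62.2% of those promoters. The core letters bound by RBPJ, TGGGAA on either strand, were in 21.1% of all promoters and in 0 of the 8 windows, which says only that these letters are not in these windows.

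NOTCH1, NOTCH2 and NOTCH3 made up nearly all of the receptor RNA. Which of them led differed by stage and, at D0 and D70, between libraries of a stage. Per length of the canonical transcript, the D0 controls held 44.4 ± 7.27 CPM per kb of NOTCH1, 43.95 ± 1.03 of NOTCH3, 23.1 ± 2.08 of NOTCH2 and 1.11 ± 0.55 of NOTCH4 (mean ± SD, n = 2, as throughout). With TMG at D0, NOTCH3 led at 53.9 ± 0.05 CPM per kb, against 38.5 ± 1.55 of NOTCH1. By D12 the order in the controls was NOTCH2 at 111.9 ± 28.1, NOTCH3 at 75.2 ± 0.43 and NOTCH1 at 46.5 ± 7.34 CPM per kb. As a share of the 4 receptors together, NOTCH2 was 20.2% to 20.8% in all 4 D0 libraries of both arms and 36.6% to 63.5% in the 12 later libraries. The D0 libraries lie below every later one in this share. In D70 TMG replicate 2 NOTCH3 led, at 41.9% against 36.6% for NOTCH2. NOTCH4 was at most 1.41% in any library. Among the ligands and DLK2, JAG1 held the largest share per length in 15 of 16 libraries, the exception being D70 control replicate 2, where it was 16.7% and DLL3 29.7%.

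**Figure D1:**
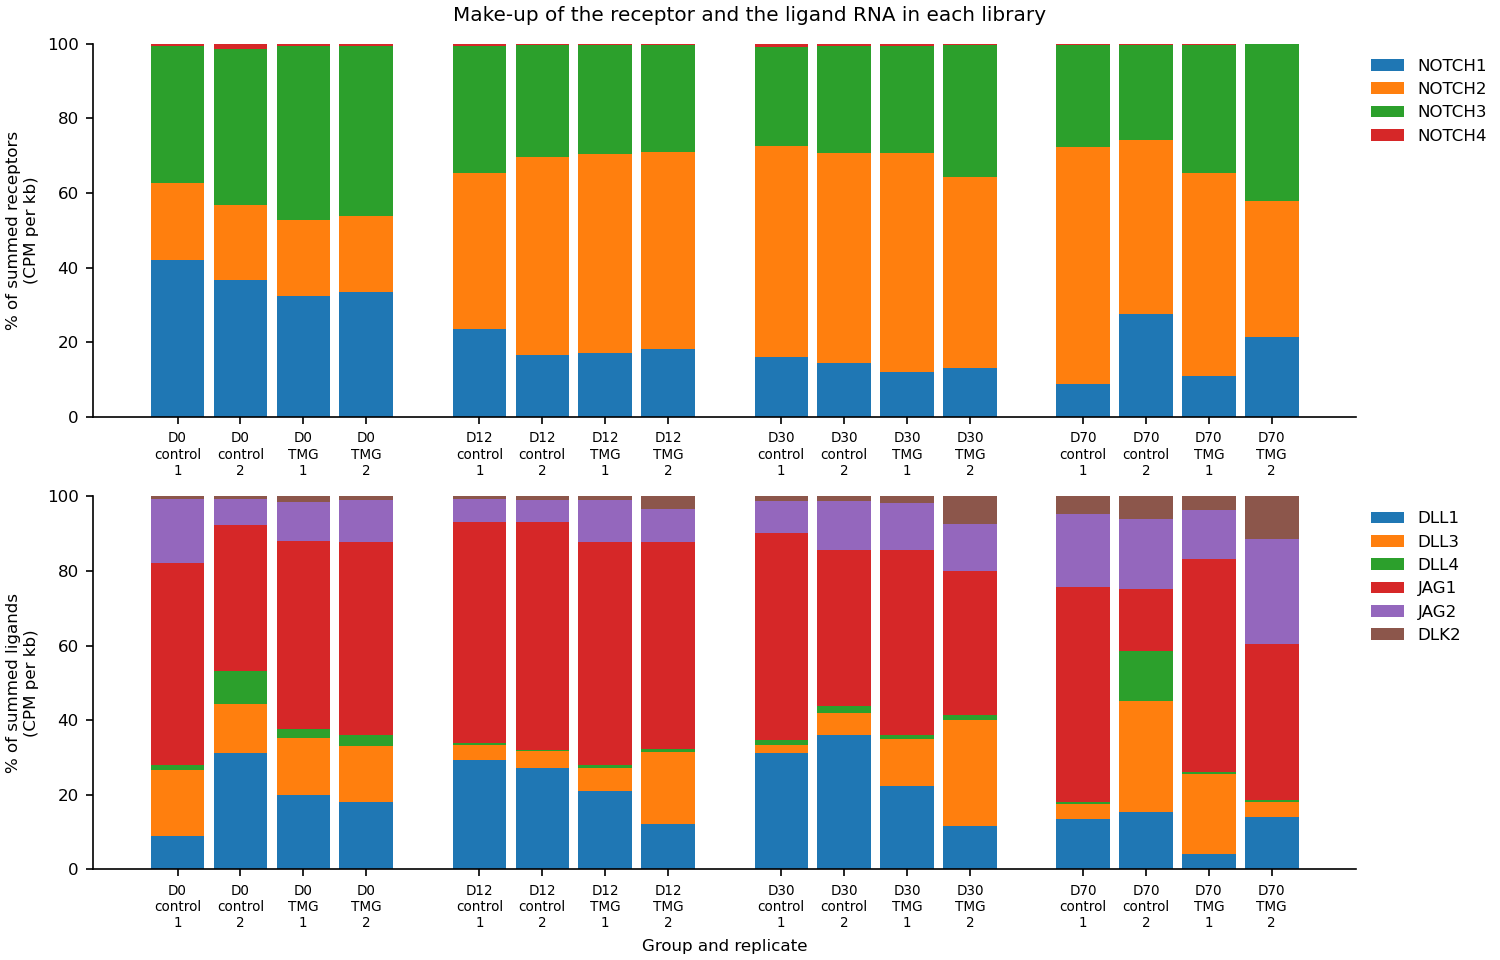
Share of each gene in the summed receptor RNA (upper) and ligand RNA (lower) of each library, in percent of CPM per kb of canonical transcript; each bar is 1 library. NOTCH2 took 20.2% to 20.8% of receptor RNA at D0 and at least 36.6% in each later library.

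NOTCH2, a receptor of neural progenitors, was the member whose level differed most firmly between stages. In the control arm it was at 280 and 247 CPM at D0, 1052 and 1506 at D12, 1186 and 1240 at D30, and 899 and 603 at D70. In the TMG arm it was at 267 and 272 CPM, then 1164 and 1152, 1137 and 826, and 695 and 732. Every later library of both arms lies above all 4 D0 libraries. In the control arm the log2 fold change over D0 was 2.28 ± 0.25 at D12 (SE, edgeR quasi-likelihood test, adjusted p = 0.000694), 2.20 ± 0.25 at D30 (adjusted p = 0.000261) and 1.51 ± 0.25 at D70 (adjusted p = 0.0015). In the TMG arm it was 2.10 ± 0.25 at D12, 1.86 ± 0.25 at D30 and 1.40 ± 0.25 at D70 (adjusted p = 0.000942, 0.000723 and 0.00226 by edgeR). These 3 folds of an arm share the same D0 libraries. For D70 over D12 in the control arm the NOTCH2 log2 fold change was -0.77 ± 0.24. EdgeR did not call this change (adjusted p = 0.0664), and DESeq2 did (0.0209). In bulk RNA, more cells of a type and more RNA per cell cannot be told apart, here or for any gene below. The 2 genes whose log2 CPM followed NOTCH2 most closely over the 16 libraries were NBPF14 (r = 0.98) and NBPF9 (r = 0.97), members of the NBPF family, whose genes lie beside the NOTCH2 copies on chromosome 1.

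NOTCH1, the receptor most studied in stem cells, did not pass the test between any pair of stages in either arm. Its controls were at 474 and 376 CPM at D0, 495 and 395 at D12, 281 and 264 at D30, and 103 and 299.5 at D70. The D30 controls lie below the D0 and D12 controls, and the D70 pair differ from each other by more than the D0 and D30 means do. NOTCH3, which is also known in vascular mural cells, was at 375 and 388 CPM in the D0 controls, 655 and 649.8 at D12, 424 and 479 at D30, and 294 and 251 at D70. It fell from D12 to D70 in the control arm by 1.26 on the log2 scale (SE 0.25, edgeR adjusted p = 0.0128), and its higher D12 level over D0 missed the threshold (log2 fold change 0.77 ± 0.25, edgeR adjusted p = 0.0563; DESeq2 0.027; edgeR on the 12 libraries without D70 0.0041). The fall was not called without D70 control replicate 2 (edgeR adjusted p = 0.0582) or without D12 control replicate 1 or 2 (0.0823 and 0.0631). NOTCH4, known mainly from endothelium, stayed between 1.202 and 10.1 CPM, from 13 to 169 counts a library, and passed no test between stages. Of 10 endothelial genes 9 were in the table, with 0 to 2 of them at no counts in a library. They summed to 143 to 209 CPM at D0, 21.1 to 41.55 at D12, 38.9 to 128 at D30 and 37.5 to 96.0 at D70. NOTCH4 had its highest mean, 9.08 CPM, in the D30 controls, where the endothelial genes summed to 39.9 and 42.35 CPM. The part of endothelial cells in the NOTCH4 levels was not tested.

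**Figure D2:**
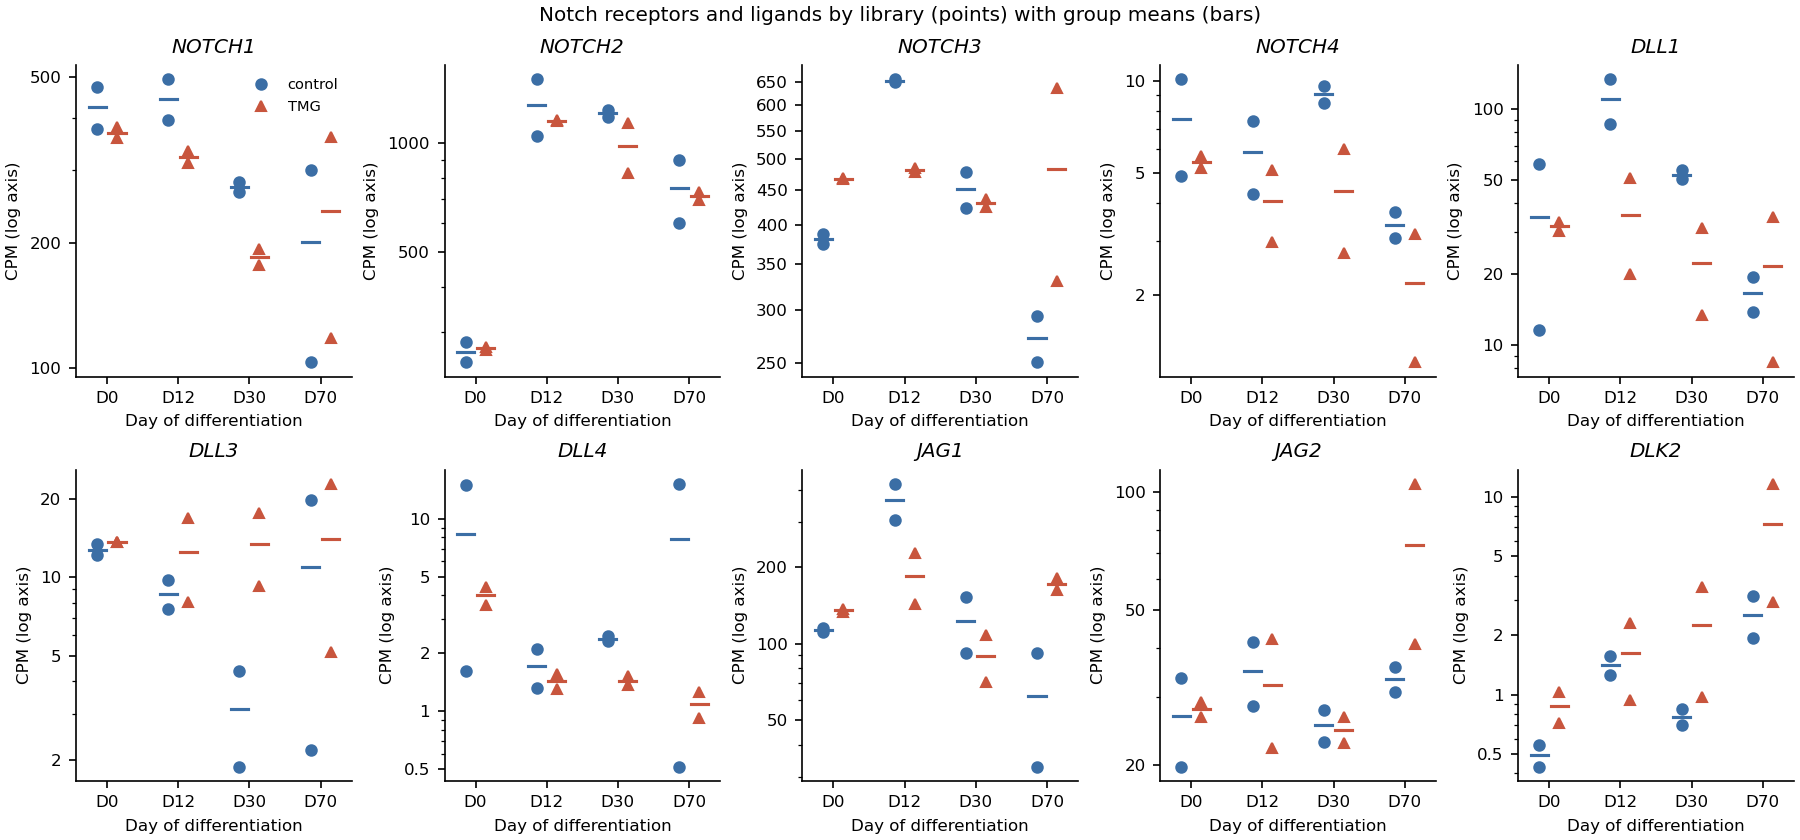
CPM of each of the 10 genes in each library (log axis) by day, circles for control and triangles for TMG, with a bar at each group mean. NOTCH2 sits at 247 to 280 CPM in the 4 D0 libraries and at 603 CPM or above in every later one.

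JAG1, a Jagged ligand, was highest at D12 in the control arm. The controls were at 111 and 116 CPM at D0, 424 and 305 at D12, 153 and 91.7 at D30, and 92.1 and 32.9 at D70. Both D12 controls lie above all other JAG1 controls. JAG1 rose from D0 to D12 by a log2 fold change of 1.69 ± 0.44 (edgeR adjusted p = 0.0269) and fell from D12 to D70 by 2.54 on the log2 scale (SE 0.46, edgeR adjusted p = 0.00868). The rise was not called when any 1 of its 4 libraries was left out (edgeR adjusted p from 0.0647 to 0.139, log2 fold change from 1.46 to 1.90), nor on the 8 control libraries alone (0.0554), and the fall was not called without D12 control replicate 1 (0.0607). The fall was 2.00 on the log2 scale without D70 control replicate 2, the mesenchyme-rich library, and 3.47 without D70 control replicate 1, and it was called in both fits (edgeR adjusted p = 0.0193 and 0.00511). In the TMG arm JAG1 was at 134 and 137 CPM, 227 and 143, 109 and 70.4, and 181 and 163 at the same 4 stages, with no pair of stages called.

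DLL1, the ligand that newborn neurons present, ran in the same order of stages as JAG1 in the control arm: D12, D30, D0, D70 from the highest mean down. Its controls were at 11.6 and 58.5 CPM at D0, 133 and 86.2 at D12, 54.9 and 50.4 at D30, and 13.8 and 19.4 at D70. The D0 controls differ from each other by more than the D0 and D30 means do. The difference between D70 and D12 was -2.73 ± 0.82 (log2, edgeR adjusted p = 0.0569; DESeq2 0.00447). DLL3, the intracellular inhibitor, was at 12.2 and 13.4 CPM in the D0 controls, 9.73 and 7.56 at D12, 1.88 and 4.37 at D30, and 2.19 and 19.8 at D70. DLL4, known from sprouting vessels, was under 5 CPM in 14 of 16 libraries and stood at 15.04 in D0 control replicate 2 and 15.2 in D70 control replicate 2. Neither DLL3 nor DLL4 passed a test between stages.

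JAG2, the second Jagged ligand, was at 19.9 to 42.1 CPM in every library but D70 TMG replicate 2, at 105 CPM. In the TMG arm it was called higher at D70 than at D0 (41.0 and 105 against 26.6 and 29.1 CPM, log2 fold change 1.39 ± 0.44, edgeR adjusted p = 0.0359), a call that is lost without D70 TMG replicate 2 (0.56, edgeR adjusted p = 0.33), without D0 TMG replicate 1 or 2 (0.175 and 0.143), on the 8 TMG libraries alone (0.082) and without the 3 mesenchyme-rich libraries (0.58, edgeR adjusted p = 0.293). DLK2 was the scarcest member per length at D0, at 0.43 and 0.56 CPM in the controls (7 and 8 counts) and 1.03 and 0.72 CPM with TMG. At D70 it was at 1.93 and 3.14 CPM in the controls and 2.92 and 11.7 CPM with TMG. DLK2 rose from D0 to D70 in the control arm (log2 fold change 2.33 ± 0.79, edgeR adjusted p = 0.0456) and in the TMG arm (3.05 ± 0.77, edgeR adjusted p = 0.0137). Leaving out any 1 of the 4 control libraries ended the control call (edgeR adjusted p from 0.0688 to 0.20), and without D70 TMG replicate 2 the TMG log2 fold change was 1.74 (edgeR adjusted p = 0.0997) and without D70 TMG replicate 1 3.72 (0.00351); it also missed the threshold without D0 TMG replicate 1 or 2 (0.0798 and 0.113). Of the 10 alternatives run for the rise of DLK2 in the TMG arm, 4 ended its call. Among the members, DLK2 and NOTCH4 ran most nearly opposite over the 16 libraries (r = -0.87 of log2 CPM, a description over libraries that share their stages).

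Each count of members called here is given with the share of all genes called in the same comparison. In the control arm edgeR called 2 of 10 members for D12 over D0 (NOTCH2 and JAG1; 16.7% of all genes tested), 1 for D30 over D0 (NOTCH2; 30.6%), 2 for D70 over D0 (NOTCH2 and DLK2; 29.8%), 0 for D30 over D12 (3.6%), 2 for D70 over D12 (NOTCH3 and JAG1; 11.1%) and 0 for D70 over D30 (0.384%). In the TMG arm it called NOTCH2 alone for D12 over D0 (16.4%) and for D30 over D0 (27.7%), NOTCH2, JAG2 and DLK2 for D70 over D0 (29.0%), and 0 for D30 over D12 (0.511%), D70 over D12 (5.15%) and D70 over D30 (0.00825%). By edgeR's unadjusted p under 0.05, the 5 comparisons with 0 calls held 1 and 5 members in the control arm (D30 over D12, 20.4% of all genes, and D70 over D30, 18.4%) and 1, 3 and 2 in the TMG arm (D30 over D12, 15%, D70 over D12, 23.5%, and D70 over D30, 11.0%). DESeq2 called JAG1 for D30 over D12 in the control arm (5.7% of its 43143 genes), DLK2 for D70 over D12 (7.03%) and JAG2 for D70 over D30 (0.851%) in the TMG arm, and 0 members in the other two. When each member's stages were put in order of mean level, 1 of 30 neighbouring pairs was called in each arm, NOTCH2 at D70 over D0. The remaining neighbours in each order were not called by edgeR (lowest adjusted p 0.0762 in the control arm and 0.134 in the TMG arm). Some of their unadjusted 95% intervals still left out 0. In the control arm these were JAG1 for D30 over D12 (-2.55 to -0.61, DESeq2 adjusted p = 0.0109) and NOTCH2 for D70 over D30 (-1.22 to -0.16). In the TMG arm they were JAG2 for D70 over D12 (0.22 to 2.14) and DLK2 for D70 over D30 (0.10 to 3.29).

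**Figure D3:**
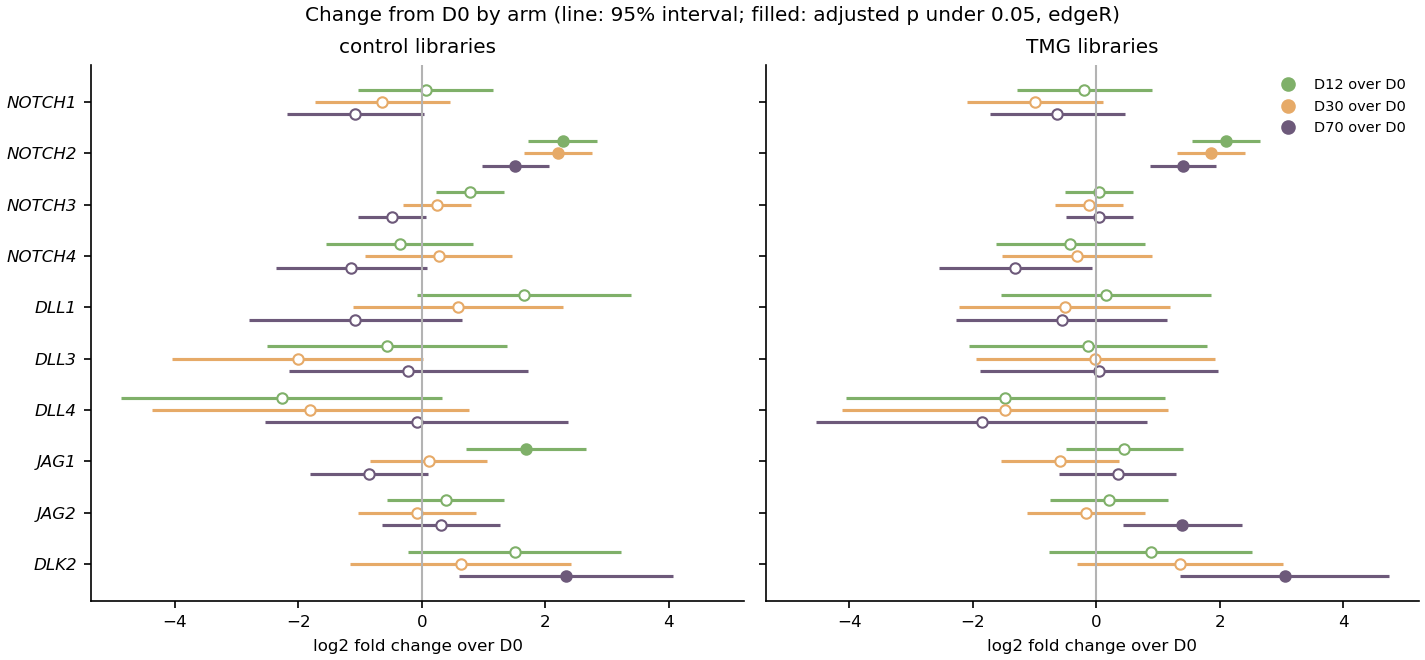
Log2 fold change of each gene from D0 to D12, D30 and D70 in the control arm (left) and the TMG arm (right), with 95% intervals; filled points have an adjusted p under 0.05 by edgeR. NOTCH2 is filled at all 3 stages in both arms, from 1.40 to 2.28.

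TMG against control answers whether raised O-GlcNAc goes with other levels of these genes at a stage. Here no member passed the adjusted test at any stage, by edgeR or by DESeq2 over 16 libraries. EdgeR called 0 of all 24249 genes (0.0%) at each stage, whereas DESeq2 called 5 at D0, 11 at D12, 595 at D30 and 52 at D70, none of them a member. By edgeR, an unadjusted p under 0.05 was reached by 0 members at D0 (1.26% of all genes), 1 at D12 (2.48%), 1 at D30 (12%) and 4 at D70 (5.49%), and by DESeq2 there were 0, 2, 1 and 5 members (0.76%, 1.65%, 7.44% and 3.46% of its 43143 genes, which no filter on low counts had reduced). The standard error of a member's log2 fold change ran from 0.24 for NOTCH2 to 1.24 for DLL4 at D70, and the intervals of DLL3 and DLL4 spanned several log2 units with 2 libraries an arm.

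At D0 the 2 TMG libraries lay above both controls for 4 of 10 members (19.7% of all genes did so) and below both for 0 (16.9%). The 4 were NOTCH3 (468 and 468 against 375 and 388 CPM), JAG1 (134 and 137 against 111 and 116 CPM), DLL3 and DLK2. The log2 fold change was 0.29 for NOTCH3 (95% interval -0.25 to 0.84) and 0.26 for JAG1 (-0.69 to 1.21), and the adjusted p was 1.0 by edgeR for each.

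At D12 both TMG libraries lay below both controls for 4 of 10 members (16.5% of all genes) and above both for 0 (17.8%): NOTCH1, NOTCH3, DLL1 and JAG1. JAG1 was at 227 and 143 CPM with TMG against 424 and 305 CPM in the controls, a log2 fold change of -0.98 (95% interval -1.94 to -0.02, edgeR unadjusted p = 0.0458, adjusted p = 1.0). DLL1 was at 50.8 and 20.1 CPM against 133 and 86.2 CPM, a log2 fold change of -1.63 (95% interval -3.36 to 0.10, edgeR adjusted p = 1.0). DESeq2 on the 4 D12 libraries alone called DLL1 (adjusted p = 0.0355), and its log2 fold change ran from -2.45 without D12 TMG replicate 1 to -1.12 without D12 TMG replicate 2. NOTCH3 was at 485 and 479 CPM against 655 and 649.8 CPM, pairs that are each tight, yet with the spread pooled over all stages its log2 fold change of -0.44 had an interval of -0.98 to 0.11. NOTCH1 was at 312 and 333 CPM against 495 and 395 CPM (log2 fold change -0.46, interval -1.56 to 0.63).

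At D30 both TMG libraries lay below both controls for 5 of 10 members (21.0% of all genes) and above both for 2 (23.1%). The 5 were NOTCH1 (193 and 177 against 281 and 264 CPM), NOTCH2 (1137 and 826 against 1186 and 1240 CPM), NOTCH4, DLL1 (31.2 and 13.4 against 54.9 and 50.4 CPM) and DLL4. The 2 were DLL3, at 9.23 and 17.7 CPM against 1.88 and 4.37 CPM, and DLK2, at 0.97 and 3.50 CPM against 0.85 and 0.70 CPM. DLL3 had a log2 fold change of 2.08 (95% interval 0.04 to 4.13, edgeR unadjusted p = 0.0462, adjusted p = 0.41), from 20 and 87 counts in the controls and 95 and 187 counts with TMG. DESeq2 on the 4 D30 libraries alone called it (adjusted p = 0.0202), and without D30 TMG replicate 2, the mesenchyme-rich library, its log2 fold change was 1.54 (edgeR adjusted p = 1.0). For DLK2 the log2 fold change went from 1.53 to 0.34 without that library, for NOTCH4 from -1.05 to -0.59, for DLL1 from -1.24 to -0.75 and for NOTCH2 from -0.31 to -0.09. Without D30 TMG replicate 1 they were 2.18, -1.72, -1.97 and -0.56, and that of DLL3 was 2.84 without D30 control replicate 2. The summed level of 10 neuron genes at D30 was 330 and 454 CPM in the controls and 549.6 and 789 CPM with TMG, that of the mesenchymal genes 4658 and 5653 CPM against 6037 and 30470 CPM, and their part in the D30 differences was not tested.

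**Figure D4:**
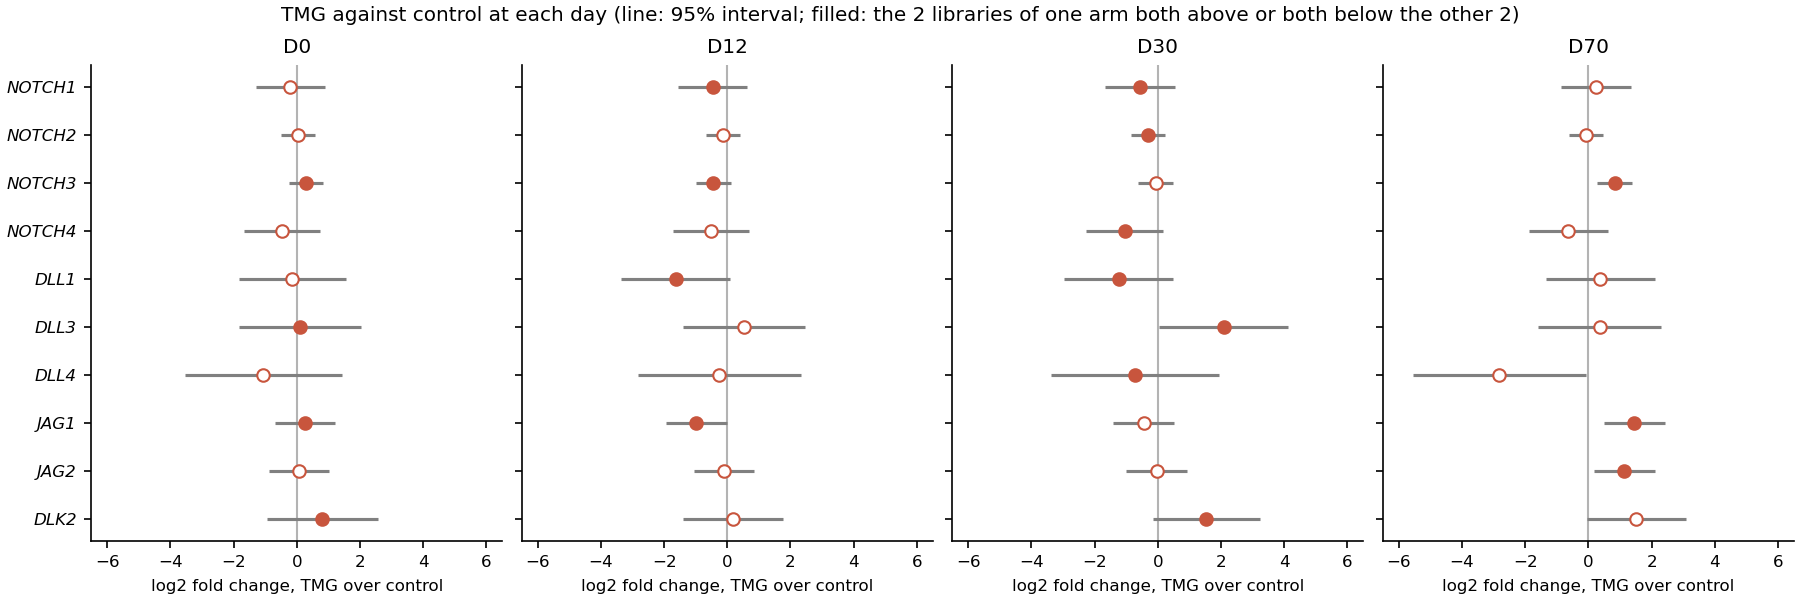
Log2 fold change of TMG over control for each gene at each day, with 95% intervals from the edgeR fit over 16 libraries; filled points mark genes whose 2 TMG libraries both lie above or both below the 2 controls. DLL3 at D30 is at 2.08, and NOTCH3, JAG1 and JAG2 at D70 are at 0.83, 1.46 and 1.13.

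At D70 both TMG libraries lay above both controls for 3 of 10 members (9.77% of all genes) and below both for 0 (12.4%). JAG1 was at 181 and 163 CPM with TMG against 92.1 and 32.9 CPM (log2 fold change 1.46, 95% interval 0.48 to 2.43, edgeR unadjusted p = 0.00714, adjusted p = 0.858). NOTCH3 was at 331 and 637 against 294 and 251 CPM (0.83, interval 0.28 to 1.38, unadjusted p = 0.00689 by edgeR, adjusted p = 0.858). JAG2 was at 41.0 and 105 against 30.8 and 35.7 CPM (1.13, interval 0.17 to 2.10, unadjusted p = 0.0248 by edgeR, adjusted p = 0.894). The fourth member with an unadjusted p under 0.05, DLL4, had overlapping arms: 1.26 and 0.92 CPM with TMG and 0.51 and 15.2 CPM in the controls. Its log2 fold change was -2.83 and turned to 1.09 without D70 control replicate 2, the mesenchyme-rich control (edgeR adjusted p = 0.899 and 0.713). Mesenchymal genes were high in replicate 2 of both arms at D70. Choroid plexus genes, 7 in number, summed to 10510 and 490 CPM in the D70 controls and 3429 and 55.4 CPM with TMG (at most 555 CPM before D70), and the 10 neuron genes to 950 and 561 CPM against 1050 and 166 CPM. The part of these cell types in the D70 differences was not tested. Without D70 TMG replicate 2 the log2 fold change was 0.28 for NOTCH3 and 0.31 for JAG2, while that of JAG1 was 1.53 (edgeR adjusted p = 0.976, 1.0 and 0.792). For JAG1 it was 2.38 without D70 control replicate 1 and 0.91 without D70 control replicate 2 (edgeR adjusted p = 0.13 and 0.492). Without D70 TMG replicate 1 NOTCH3 and JAG2 were called (log2 fold change 1.22 and 1.65, edgeR adjusted p = 0.00955 and 0.047). Without the 3 mesenchyme-rich libraries, which leaves 1 library an arm at D70, JAG1 was at 0.98, JAG2 at 0.42 and NOTCH3 at 0.17 (edgeR adjusted p = 0.617, 0.929 and 0.934).

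DLL3 and DLL1, the Delta-like genes of opposite action, were compared within each library, a comparison chosen after their values were seen. At D12 DLL1 lay apart between the arms and DLL3 did not (8.05 and 16.8 CPM with TMG, 9.73 and 7.56 CPM in the controls), while at D30 both did. Their ratio within a library does not depend on how libraries are scaled. The ratio of DLL3 to DLL1 counts was 0.073 and 0.0877 in the D12 controls and 0.159 and 0.839 with TMG, and it was 0.0343 and 0.0867 in the D30 controls and 0.296 and 1.32 with TMG. Both TMG libraries lie above both controls at these stages, which at D30 restates that DLL3 lay above and DLL1 below in both, so the ratio is given as a description. At D0 the TMG libraries (0.41 and 0.448) lie between the controls (1.05 and 0.229), and at D70 the arms overlap (0.158 and 1.02 in controls, 2.70 and 0.149 with TMG). In both arms at D12 and D30, replicate 2 has the higher ratio.

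**Figure D5:**
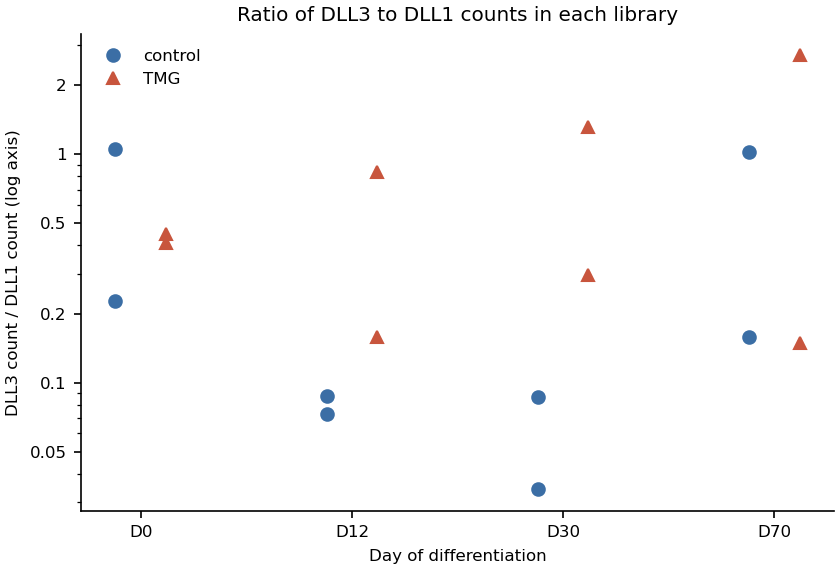
Ratio of DLL3 counts to DLL1 counts in each library (log axis) by day, circles for control and triangles for TMG. The arms are apart at D12 (0.073 and 0.0877 against 0.159 and 0.839) and D30, and overlap at D0 and D70.

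The neurogenins, bHLH factors known to switch on Delta genes, were followed beside them. At D30 NEUROG1 was at 8.35 and 23.4 CPM with TMG against 0 and 3.71 CPM, and NEUROG2 at 1.36 and 10.4 against 0.38 and 0.50 CPM. Neither passed the adjusted test, and NEUROG3 stayed under 1.05 CPM in every library. At D70 NEUROG1 and NEUROG2 were both at 0 counts in TMG replicate 2, and at 26.2 and 7.74 CPM in TMG replicate 1.

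The other pathway genes formed 8 lists with 52 genes tested, and none of the 52 passed the adjusted test for TMG at any stage, by edgeR or by DESeq2 over 16 libraries. The median log2 fold change of the 52 was 0.01 at D0, -0.01 at D12, 0.03 at D30 and 0.10 at D70, beside 0.00, 0.00, 0.01 and -0.01 over all genes. By stage, 9 of the 52 were called higher and 3 lower at D12 over D0 in the control arm, 13 higher and 6 lower at D30, and 12 higher and 5 lower at D70, beside 16.7%, 30.6% and 29.8% of all genes called in either direction. Of the 23 stage changes of pathway genes named here and in the next paragraph as called, those of MIB1 at D30, EOGT at D12 and CNTN6 at D70 kept the call under each of 10 or 11 alternatives, and the other 20 lost it under 1 to 7 of them. Among the genes that cut receptors, FURIN, the protease ADAM17 and APH1B of γ-secretase were called higher at D30 over D0, and PSEN2, also of γ-secretase, was called lower. Of the 4 ligand ubiquitin ligases, which ligands need in order to signal, 3 were called higher at D30 (MIB1, MIB2 and NEURL1), with NEURL1 at a log2 fold change of 2.79 ± 0.59 (edgeR adjusted p = 0.0055; 3.43 without D0 control replicate 2, 0.017). Of the 6 enzymes that add sugars to Notch proteins, LFNG, which tunes receptors towards Delta-like ligands, rose at D12 over D0 (log2 fold change 1.78 ± 0.49, edgeR adjusted p = 0.0337) and fell from D12 to D70 by 2.10 (SE 0.50, edgeR adjusted p = 0.0253). LFNG was at 172 and 78.0 CPM in the D12 controls and at 95.5 and 36.8 CPM with TMG. Without D12 control replicate 1 the LFNG rise was 1.12 and the fall 1.44, with neither called (edgeR adjusted p = 0.242 and 0.189). EOGT, which adds O-GlcNAc to the outer part of Notch proteins, was lower than at D0 at all 3 later stages in the controls (log2 fold change -2.11, -1.40 and -1.15, edgeR adjusted p = 0.00319, 0.00902 and 0.022).

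RBPJ, the DNA-binding partner of the receptor tail, was at 107 to 204 CPM in every library. It passed no test over D0 in the control arm by edgeR. For D12 over D0 DESeq2 called it lower (log2 fold change -0.50, edgeR adjusted p = 0.0992, DESeq2 0.049). Of the 7 direct targets, 1 was called higher and 0 lower at D12 over D0 in the controls, 1 higher and 2 lower at D30, and 0 higher and 1 lower at D70, beside 16.7%, 30.6% and 29.8% of all genes called in these comparisons. HES4 rose at D12 and D30 (log2 fold change 3.66 ± 0.74 and 2.21 ± 0.70, edgeR adjusted p = 0.0092 and 0.0349), from 3.21 and 12.8 CPM at D0 to 127 and 74.7 CPM at D12 and 42.6 and 31.6 CPM at D30. Without D0 control replicate 1 these changes were 3.01 and 1.59, with neither called (edgeR adjusted p = 0.0595 and 0.167), and without D0 control replicate 2 they were 4.97 and 3.52. HEY2 was lower at D30, at 0.38 and 0.25 CPM against 14.1 and 15.6 CPM at D0 (log2 fold change -5.57 ± 1.42, edgeR adjusted p = 0.014). NRARP, which feeds back on the pathway, fell from D0 to D30 and D70 in the controls by 2.37 and 3.19 on the log2 scale (SE 0.69 and 0.72, edgeR adjusted p = 0.0254 and 0.0081). Its controls were at 59.4 and 162 CPM at D0, 59.0 and 27.8 at D12, 21.6 and 21.3 at D30, and 8.16 and 16.02 at D70. Without D0 control replicate 2 the falls were 1.47 and 2.30, with neither called (edgeR adjusted p = 0.192 and 0.0603). HES1 was at 29.7 to 88.0 CPM throughout, and TMG over control and each control stage over D0 missed the threshold. HES5 was at 102 and 35.0 CPM in the D12 controls and 32.0 and 2.24 CPM with TMG (log2 fold change -2.00 ± 1.33, edgeR adjusted p = 1.0), and the log2 fold change ran from -4.93 without D12 TMG replicate 1 to -1.04 without D12 control replicate 1. HEY1 was at 3.67 and 4.62 CPM in the D30 controls and 5.25 and 18.2 CPM with TMG (log2 fold change 1.49 ± 0.81, edgeR adjusted p = 0.496). That log2 fold change was 0.34 without D30 TMG replicate 2 and ran from 0.29 to 2.125 over all alternatives. Of the 7 further ligands, 5 were called higher and 1 lower at D70 over D0 in the controls, beside 29.8% of all genes called. CNTN6, a contactin of neurons, rose from 0.19 and 0.77 CPM to 11.6 and 16.4 CPM (log2 fold change 4.88 ± 0.55, edgeR adjusted p = 0.000239; 4.20 without D0 control replicate 1 and 6.18 without D0 control replicate 2), and EGFL7 fell from 28.3 and 23.4 CPM to 10.3 and 10.2 CPM (log2 fold change -1.33 ± 0.30, edgeR adjusted p = 0.00874). MFAP2 and MFAP5, proteins of extracellular microfibrils, were just under the threshold (edgeR adjusted p = 0.0442 and 0.0488). MFAP5 was at 0.13 CPM in D70 control replicate 1 and 8.53 CPM in the mesenchyme-rich replicate 2, and its log2 fold change of 4.64 turned to -0.33 without the latter. DLK1, a relative of DLK2, and DNER, a ligand-like protein of neurons, were the others called higher (log2 fold change 3.12 ± 0.94 and 4.14 ± 1.05, edgeR adjusted p = 0.0298 and 0.0141). DLK1 was at 33.4 and 77.8 CPM in the D0 controls and at 142 and 824 CPM at D70, where the higher value is the mesenchyme-rich replicate 2; without it the log2 fold change was 1.37 (edgeR adjusted p = 0.275), and without D0 control replicate 2 it was 3.85 (0.0771). DNER was at 3.58 and 3.99 CPM at D0 and 119 and 14.2 CPM at D70, and its log2 fold change was 1.91 without D70 control replicate 1 (edgeR adjusted p = 0.151) and 4.99 without D70 control replicate 2 (0.00407). DLK1 was at 249 and 104 CPM in the D12 controls and 68.5 and 25.6 CPM with TMG, and its arms did not overlap there.

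The genes whose log2 CPM ran most like each remaining member over the 16 libraries were GPR18 and ZCCHC9 for NOTCH1 (r = 0.95 and 0.94), MAN2C1 and ZNF707 for NOTCH3 (0.88 and 0.86), IER5L-AS1 and MADCAM1 for NOTCH4 (0.93 and 0.93), ZNF542P and HELZ2 for DLL1 (0.89 and 0.87), and THSD7B and SRRM4 for DLL3 (0.88 and 0.83). For DLL4 they were TNFRSF14-AS1 and BEST1 (0.90 and 0.85), for JAG1 HDAC7 and RPL23AP64 (0.89 and 0.88), for JAG2 MYH14 and RAB3D (0.92 and 0.90), and for DLK2 C1RL-AS1 and SNRK (0.95 and 0.94). These correlations pool stages and arms of libraries that differ in cell make-up, and are given as a description.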

How the data were processed

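RNA was measured by sequencing 16 libraries. The submitters' notes name Bowtie2 and RSEM 1.2.12 on hg19 (GRCh37) with Ensembl genes, and the authors deposited RSEM expected counts per gene, as whole numbers, not normalized; all 16 sample columns were used. Counts were scaled by TMM and given as CPM. EdgeR 4.0.16 (R 4.3.3) kept genes passing filterByExpr (minimum count 10, minimum total 15) and fitted the 8 groups in 1 quasi-likelihood model with robust dispersions and 8 residual degrees of freedom, over all 24249 genes; p-values were adjusted by Benjamini-Hochberg, called at 5%, and intervals are 95%. The deposited counts were also run through DESeq2 1.42.0. The scripts were tested on simulated data. The study describes the libraries of a group as biological replicates, and p-values measure only the spread between them. Levels per length divide CPM by the canonical transcript of GENCODE 44 mapped to GRCh37. Likeness is Pearson's r of log2 CPM with prior count 2. Named were all 10 members, the pathway genes called for TMG at D30 by edgeR or DESeq2 (none), 8 fixed pathway genes (HES1, HES5, HEY1, NRARP, RBPJ, LFNG, DLK1, DNER) and the 2 genes most like each member; the other pathway genes named were chosen after their values were seen. Some genes of these lists are counted but not reported here by name. The members and lists were chosen with earlier results of these data known. Alternatives were another scaling, no filter, DESeq2, fewer libraries, a replicate block and leaving out each library; a fit without the 3 mesenchyme-rich libraries and, for stages, one without D70 were added after seeing the data.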

Additional observations from a re-analysis of the deposited data

Results flagged for a closer look

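For 2 members the difference between TMG and control at D70 was unlike that at D30 by a test of that difference itself (an interaction term in the edgeR fit), at an unadjusted p under 0.05 that fails the adjustment over all genes. For JAG1 the TMG log2 fold change was higher at D70 than at D30 by 1.91 ± 0.62 (SE, unadjusted p = 0.0104, adjusted p = 1.0 by edgeR): both TMG libraries were above both controls at D70 (181 and 163 against 92.1 and 32.9 CPM), and at D30 the arms overlapped (109 and 70.4 against 153 and 91.7 CPM). For NOTCH3 it was higher by 0.90 ± 0.35 (unadjusted p = 0.0268, adjusted p = 1.0 by edgeR), and 0.35 without D70 TMG replicate 2, 0.30 without the 3 mesenchyme-rich libraries and 1.29 without D70 TMG replicate 1, where it was called (adjusted p = 0.0294 by edgeR). The JAG1 difference was 1.18 without the 3 mesenchyme-rich libraries and 1.38 to 2.83 when 1 library of the 2 stages was left out. At this threshold 4.03% of all genes differed, and 2 of 10 members. Whether the cell make-up of the D70 libraries contributes was not tested.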

How the results depend on the processing

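The changes of NOTCH2 over D0 kept their direction and their call in both arms under every alternative run. Its lower level at D70 than at D12 in the control arm was called by DESeq2 over 16 libraries and not by edgeR. Of the members' fold changes recomputed, that of DLL4 for TMG at D70 reversed, to 1.09 without D70 control replicate 2 (leaving out 1 library gave -3.78 to 1.09) and 1.29 without the 3 mesenchyme-rich libraries (-2.83 with all); no other one did. That of MFAP5, a pathway gene, for D70 over D0 in the controls reversed to -0.33 without D70 control replicate 2 and -0.31 without those 3 libraries (4.64 with all; leaving out 1 library gave -0.33 to 5.62). For TMG over control, DESeq2 on the 4 libraries of a stage called 1 member at D12 (DLL1; 0.323% of its genes) and 1 at D30 (DLL3; 1.39%), and leaving out 1 library gave 0 to 2 members at D70 (2 without TMG replicate 1, where 3.07% of all genes were called); the other counts stayed at 0. For stages in the control arm, DESeq2 over 16 libraries called 1 member for D30 over D12, 4 for D70 over D12 and 3, not 2, for D12 over D0 (5.7%, 10.5% and 12.5% of its genes), and edgeR without the filter also 3 for D12 over D0 (7.13%). Without the 3 mesenchyme-rich libraries, which leaves lone libraries assumed to vary like the other groups, the control arm gave 4 members for D12 over D0 (32.4% of all genes in that fit), 3 for D30 over D0 (44.8%), 5 for D70 over D0 (37.8%), 4 for D30 over D12 (16.5%), 5 for D70 over D12 (24.8%) and 1 for D70 over D30 (9.54%), and the TMG arm gave 2 for D30 over D0 (34.4%) and 1 for D70 over D12 (14.3%). In the TMG arm DESeq2 called 1 for D70 over D12 (7.03%) and 1 for D70 over D30 (0.851%), and edgeR on its 8 libraries 2 for D30 over D0 (21.6%) and 2, not 3, for D70 over D0 (22.8%), with 3, not 2, for D70 over D12 on the 8 control libraries (10.3%). A fit without D70, for stages chosen after seeing the data, gave 4 for D12 over D0 (30.3%), 3 for D30 over D0 (44%) and 3 for D30 over D12 (13.7%) in the control arm, and 2 for D30 over D0 (40.8%) and 1 for D30 over D12 (8.24%) in the TMG arm. Leaving out 1 library gave 1 member for D12 over D0 (3.96% to 6.96% of all genes), 1 to 3 for D70 over D0 (14.2% to 23.9%) and 0 to 3 for D70 over D12 (1.33% to 8.78%) in the control arm, and 1 to 4, 0 to 2 and 0 to 1 for D70 over D0 (10.9% to 25.5%), D12 (0.303% to 11.2%) and D30 (0.00769% to 6.29%) in the TMG arm; the cause was not tested. The count over all genes for TMG, 0 at each stage by edgeR, was 5, 11, 595 and 52 by DESeq2 over 16 libraries, 6, 123, 511 and 3 by DESeq2 on 4 libraries, and 1, 0, 21 and 3 without the filter (D0, D12, D30, D70). Without the 3 mesenchyme-rich libraries it was 1 at D12, 33 at D30 and 12 at D70, without D70 it was 254 at D30, and leaving out 1 library gave 0 to 175 at D30 (175 without TMG replicate 1) and 0 to 799 at D70 (799 without TMG replicate 1). The replicate numbers are not stated to pair samples: the difference between replicates correlated between arms by 0.05 at D0, 0.37 at D12, 0.22 at D30 and 0.61 at D70. With a replicate block within stage 233 genes were called at D30, 1 at D70 and 0 members at any stage, and with a replicate block over stages 1 member was called for D30 over D12 (4.38% of all genes) and 3, not 2, for D70 over D0 (30.5%) in the control arm. Depth limits the scarcest members, with 7 to 126 counts of DLK2 and 8 to 215 of DLL4 a library.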
